A study of Mus musculus with 8 samples.

Results

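Within the chloride channel gene Clcn5 on the mouse X chromosome lies a run of miRNA hairpins, and 4 mature miRNAs from it are described here: mmu-miR-362-3p, mmu-miR-532-5p, mmu-miR-500-3p and mmu-miR-188-5p (the mouse prefix mmu is left off from here on). They were picked by name from the 1881 miRNAs with probes on the array, and all 4 were among the 222 that could be tested. They were chosen because their NcstnΔKC and normal levels were already known from these data, so that difference is given as a description, with no test. The data are 8 single-colour arrays of skin from male mice, 4 labelled NcstnΔKC and 4 labelled normal. All 8 samples carry the genotype Ncstn flx/flx; Krt14 CreER+/-, in which a tamoxifen-activated Cre recombinase is driven by the promoter of keratin 14, a gene of basal keratinocytes. The NcstnΔKC mice were dosed by mouth with tamoxifen from 8 weeks of age, at 20 mg/kg for each of 5 days and afterwards at intervals of 10 days. The normal mice were given corn oil in its place and so still carry both floxed alleles and the Cre transgene. Drug and gene loss therefore cannot be told apart between the groups. Skin was taken at 16 weeks, as lesions according to the labels. Ncstn itself was not measured by these arrays, and the labels do not state whether each sample was a separate mouse, so the spread between samples may be partly technical.

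Nicastrin, the product of Ncstn, is part of γ-secretase, the complex that cuts Notch receptors and other membrane proteins. Clcn5 encodes an exchanger of chloride and protons in endosomes, best known from the kidney. A miRNA hairpin inside a host gene is usually cut from the host's transcript, and each of its arms can give a mature miRNA that binds messenger RNAs through its seed, bases 2 to 8. Mature miRNAs cut from 1 transcript need not reach equal levels, since processing and stability differ between them. Of the 4 members, miR-188-5p is known from mouse bone marrow, where it shifts stromal cells between bone and fat fates, and miR-532-5p is known in human melanoma cells as a repressor of RUNX3.

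The mature sequences of 3 of the 4 members were in RefSeq (GRCm38.p6) and are shown because the members share a locus but no seed; the seeds are in capitals.
miR-362-3p: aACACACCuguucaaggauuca
miR-500-3p: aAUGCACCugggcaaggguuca
miR-188-5p: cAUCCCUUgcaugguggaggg
The 3 seeds differ from one another. The GC content was 40.9% in miR-362-3p, 54.5% in miR-500-3p and 61.9% in miR-188-5p, around a median of 50% for the 187 tested miRNAs with a RefSeq sequence. Of these 3, the member with the lowest share of G and C had the largest positive difference between the groups, and the one with the highest share had the negative one. Over the tested miRNAs with a sequence, the median was 47.8% in the 29 that passed as higher in NcstnΔKC skin (test below). It was 50% in the 51 that passed as lower. The part of base composition in the result was not tested.

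On the minus strand of GRCm38.p6, Clcn5 spans chrX:7153810-7319358. Counted along the direction of transcription from its distal annotated start, the hairpin Mir532 begins at 70.9 kb, Mir188 at 71.3 kb, Mir362 at 77.3 kb, Mir501 at 78.0 kb and Mir500 at 81.6 kb. A second annotated start lies at 130.6 kb, downstream of the whole run. Mir532 and Mir188 are separated by 345 bp, Mir188 and Mir362 by 5942 bp, Mir362 and Mir501 by 630 bp, and Mir501 and Mir500 by 3468 bp. The hairpins of the 3 members with a mature sequence are shown with the member's arm in capitals, because the arm used differs between them: miR-188-5p comes from the 5′ arm, and miR-362-3p and miR-500-3p come from the 3′ arm.
Mir362, chrX:7241982-7242046: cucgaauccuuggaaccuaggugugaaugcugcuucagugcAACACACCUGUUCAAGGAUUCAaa
Mir500, chrX:7237683-7237774: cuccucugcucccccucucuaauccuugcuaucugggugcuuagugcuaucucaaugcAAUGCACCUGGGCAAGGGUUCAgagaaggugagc
Mir188, chrX:7247989-7248056: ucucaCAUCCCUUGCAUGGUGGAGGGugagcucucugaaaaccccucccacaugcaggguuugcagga

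**Figure D1:**
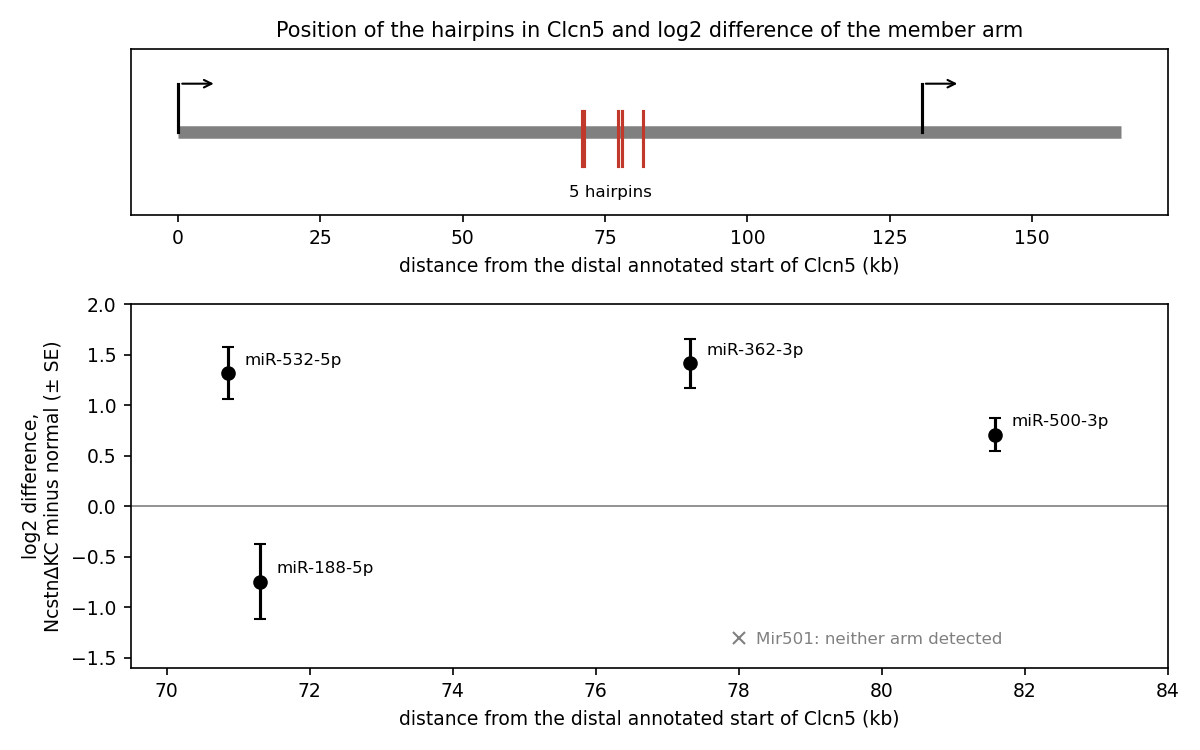
The upper panel draws Clcn5 as a grey bar in the direction of transcription, with distance from its distal annotated start in kb, the annotated starts as arrows and the 5 hairpins as red ticks. The lower panel plots the log2 difference of each member (NcstnΔKC minus normal, ± SE, n = 4 each) at its hairpin's position: the neighbours miR-532-5p and miR-188-5p lie on opposite sides of 0, at 1.32 and -0.75.

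The arrays detected between 198 and 273 of the 1881 miRNAs, 10.5% to 14.5%, and all 4 members were detected on all 8 arrays. A miRNA was counted as detected if the scanner software marked 50% or more of the spots of any of its probes as well above background. Levels below are scaled log2 signals: the probe intensities of each array were divided by their 75th percentile over the 301 probes detected on all 8 arrays, summed per miRNA and put on a log2 scale. The percentile averaged 1053 in NcstnΔKC and 1259 in normal arrays. Between the groups, 95 of the 222 tested miRNAs passed limma's moderated test at a Benjamini-Hochberg adjusted p of 0.05 (42.8%), 33 higher (14.9%) and 62 lower (27.9%). The median log2 difference of all 222 was -0.23. The groups did not overlap in 82 of the 222 (36.9%), with NcstnΔKC above normal in 30 (13.5%) and below it in 52 (23.4%). The 4 NcstnΔKC arrays lie in 1 row of the slide and the 4 normal arrays in another, so that position on the slide and group cannot be told apart. With 8 arrays, their number limits how precise any value is. One array stands apart for the members: NcstnΔKC 1 was the lowest of its group for all 4, and differences are therefore also given without it.

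In NcstnΔKC skin miR-362-3p, miR-532-5p and miR-500-3p were higher than in normal skin, by 2.66-fold, 2.49-fold and 1.64-fold, and miR-188-5p was 1.68-fold lower. The groups did not overlap in the 3 higher members (3 of 4, against the 13.5% of tested miRNAs given above; the choice of members used this contrast, so nothing is read from the count). They overlapped in miR-188-5p.

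For miR-362-3p the scaled log2 level was -2.58, -1.61, -1.75 and -1.76 in NcstnΔKC 1 to 4, against -3.37, -3.05, -3.53 and -3.40 in normal 1 to 4. Before scaling, the background-subtracted intensity summed over its probes was 195, 301, 317 and 315 in NcstnΔKC 1 to 4, against 124, 146, 107 and 124 in normal 1 to 4. All 4 NcstnΔKC arrays lay above all 4 normal arrays on both scales, with NcstnΔKC 1 nearest to the normal group. The mean level was -1.92 ± 0.44 in NcstnΔKC and -3.34 ± 0.20 in normal skin (SD, n = 4 each), a log2 difference of 1.41 ± 0.24 (SE). Relative to the median of all tested miRNAs that difference was 1.65, and without NcstnΔKC 1 it was 1.64.

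miR-532-5p had scaled log2 levels of -2.82, -1.65, -2.03 and -1.97 in NcstnΔKC 1 to 4, against -3.43, -3.31, -3.61 and -3.38 in normal 1 to 4. The summed intensities were 165, 294, 259 and 273 in NcstnΔKC 1 to 4 and 118, 122, 101 and 126 in normal 1 to 4. The groups did not overlap, and the normal arrays were held within a narrow range while NcstnΔKC 1 lay between the other NcstnΔKC arrays and the normal ones. The means were -2.12 ± 0.50 in NcstnΔKC and -3.43 ± 0.13 in normal skin (SD, n = 4 each), a log2 difference of 1.32 ± 0.26 (SE), or 1.55 against the tested miRNAs' median. Without NcstnΔKC 1 the difference was 1.56.

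The level of miR-500-3p was -1.78, -1.28, -1.47 and -1.35 in NcstnΔKC 1 to 4, against -2.08, -2.47, -1.89 and -2.28 in normal 1 to 4. In summed intensity it had 338, 378, 382 and 419 in NcstnΔKC 1 to 4, against 301, 219, 331 and 271 in normal 1 to 4. The groups did not overlap, but NcstnΔKC 1 and normal 3 came close to each other on both scales. Means of -1.47 ± 0.22 in NcstnΔKC and -2.18 ± 0.25 in normal skin (SD, n = 4 each) gave a log2 difference of 0.71 ± 0.17 (SE). Against the tested miRNAs' median that was 0.94, and without NcstnΔKC 1 the difference was 0.82.

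miR-188-5p ran the other way, with levels of -3.0, -2.51, -1.90 and -1.47 in NcstnΔKC 1 to 4, against -1.66, -1.77, -1.37 and -1.09 in normal 1 to 4. The summed intensities were 145, 162, 285 and 386 in NcstnΔKC 1 to 4 and 403, 357, 476 and 619 in normal 1 to 4. NcstnΔKC 1 and 2 lay far below every normal array, NcstnΔKC 3 lay just below them, and NcstnΔKC 4 lay within the normal range. The means were -2.22 ± 0.67 in NcstnΔKC and -1.47 ± 0.31 in normal skin (SD, n = 4 each), and the log2 difference was -0.75 ± 0.37 (SE). It was -0.51 against the tested miRNAs' median and -0.48 without NcstnΔKC 1. Of the 4 members it had the largest spread within NcstnΔKC skin.

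**Figure D2:**
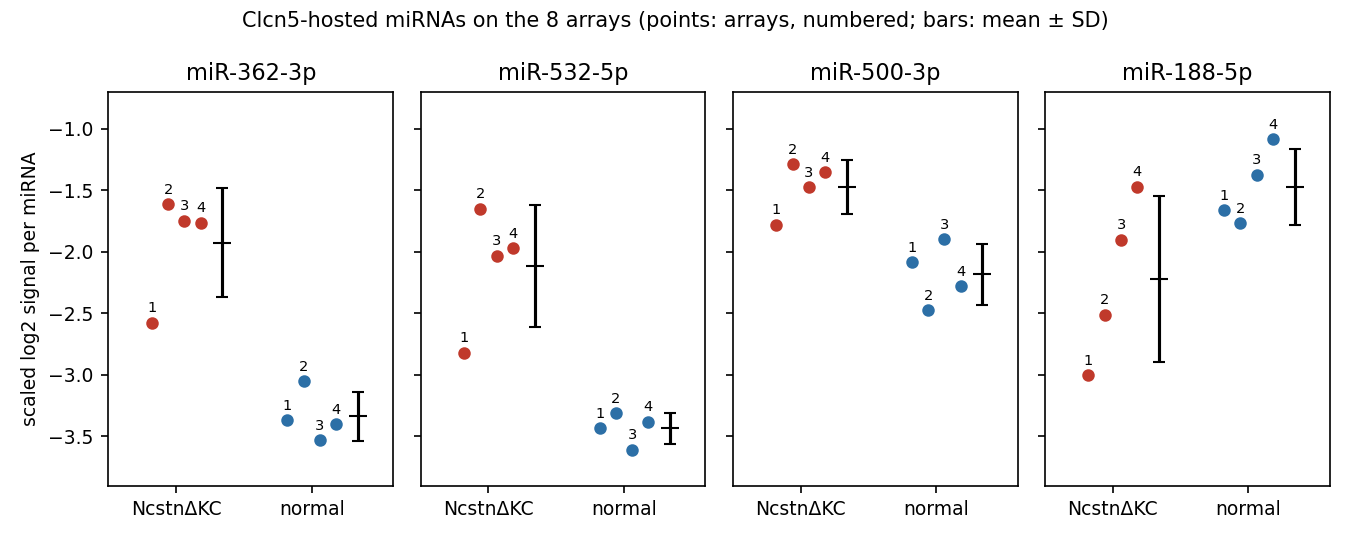
Scaled log2 signal (vertical axis) of each member on each array, with the replicate number above each point, NcstnΔKC in red, normal in blue, and mean ± SD (n = 4) as a black bar. The groups are apart for miR-362-3p, miR-532-5p and miR-500-3p, with NcstnΔKC 1 the lowest red point in every panel, and overlap for miR-188-5p, where NcstnΔKC 4 (-1.47) lies above normal 1 and 2 (-1.66 and -1.77).

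The members did not move as a block from array to array. In scaled and in series matrix values within NcstnΔKC, miR-362-3p, miR-532-5p and miR-500-3p were highest on NcstnΔKC 2 and lowest on NcstnΔKC 1, while miR-188-5p was second lowest on NcstnΔKC 2 and highest on NcstnΔKC 4. Within normal skin, normal 2 was the lowest array for miR-500-3p and miR-188-5p, in scaled and in series matrix values alike. It was the highest for miR-362-3p and miR-532-5p in scaled values, whereas normal 4 was the highest for both in the series matrix values. The normal arrays of miR-362-3p and miR-532-5p thus have no order that both tables share. With each profile centred on its mean over the normal arrays, the root mean square difference over the 8 arrays was 0.12 between miR-362-3p and miR-532-5p, 0.58 between miR-362-3p and miR-500-3p and 0.52 between miR-532-5p and miR-500-3p. It was 1.11 between miR-500-3p and miR-188-5p, 1.52 between miR-532-5p and miR-188-5p and 1.58 between miR-362-3p and miR-188-5p. The closest pair by profile, miR-362-3p and miR-532-5p, comes from hairpins several kb apart, and miR-532-5p's nearest neighbour on the chromosome, miR-188-5p, was far from it. These distances include the difference between the groups, which was known when the members were chosen. Members with unlike group differences therefore lie far apart, whatever their order within a group. Averaged over all 4 members the level was -1.93 ± 0.41 in NcstnΔKC and -2.61 ± 0.05 in normal skin (SD, n = 4 each), a log2 difference of 0.67 ± 0.21 (SE) in which NcstnΔKC 1 and normal 4, both at -2.54, met.

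Ratios of members on the same array are unchanged when each array is divided by its own single factor. Their absolute size reflects the probes, so that only differences in ratio between arrays are read. Quantile normalization, cyclic loess, background correction and probe summary can change these ratios. With normexp background correction the log2 differences of miR-362-3p and miR-188-5p were 0.81 and -0.18, against 1.41 and -0.75 as reported. With the scanner software's totals those of miR-532-5p and miR-188-5p were -2.04 and -0.85. The log2 ratio of miR-362-3p to miR-188-5p was 0.42, 0.90, 0.15 and -0.29 in NcstnΔKC 1 to 4, against -1.70, -1.28, -2.16 and -2.31 in normal 1 to 4. Every NcstnΔKC array lay above every normal array, NcstnΔKC 1 included, and the groups differed by 2.16 ± 0.34 (SE, n = 4 each). For miR-532-5p over miR-188-5p the group difference was 2.06 ± 0.34, and for miR-500-3p over miR-188-5p it was 1.46 ± 0.33, both without overlap. These ratios share miR-188-5p as denominator, so they are not separate results. On NcstnΔKC 1 and 2 miR-188-5p was detected through its longest probe alone, as given below. In contrast, the ratio of miR-362-3p to miR-532-5p was 0.24, 0.03, 0.29 and 0.21 in NcstnΔKC 1 to 4, against 0.07, 0.26, 0.08 and -0.02 in normal 1 to 4. These values overlapped, with a group difference of 0.10 ± 0.08. Set against miR-500-3p, miR-362-3p was relatively higher in NcstnΔKC skin by 0.70 ± 0.25 and miR-532-5p by 0.61 ± 0.23, with overlapping groups in both.

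**Figure D3:**
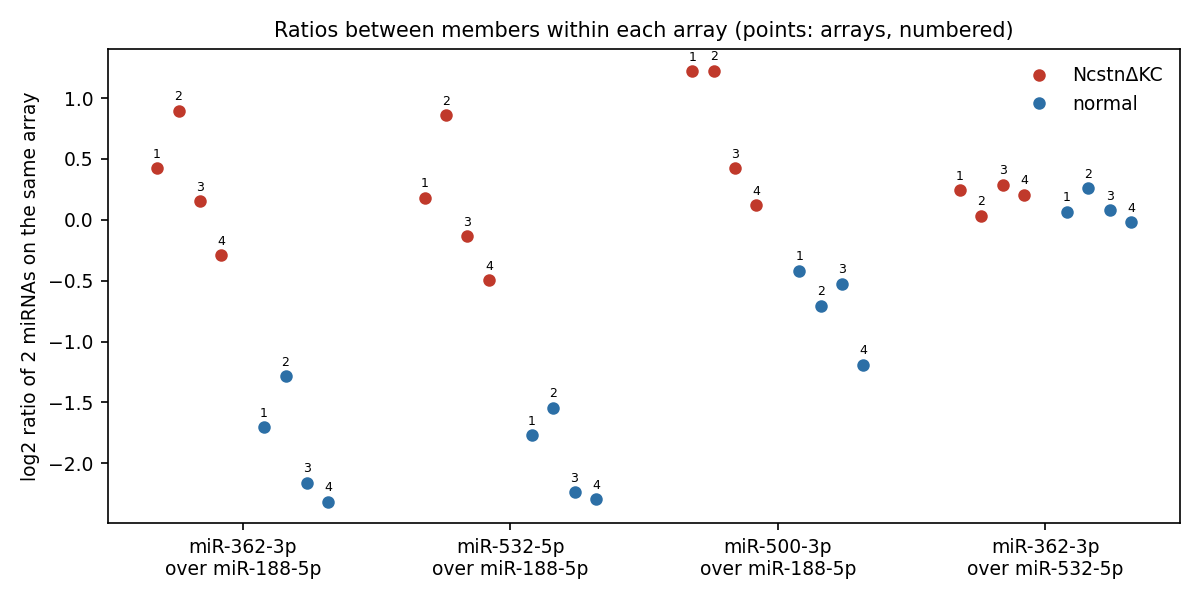
Log2 ratio (vertical axis) of each of 3 members to miR-188-5p and of miR-362-3p to miR-532-5p on each array, NcstnΔKC in red and normal in blue, with replicate numbers. The 3 ratios to miR-188-5p separate the groups on every array, with group differences of 2.16, 2.06 and 1.46, whereas the ratio of miR-362-3p to miR-532-5p does not (0.10). Those 3 share the denominator miR-188-5p, detected on NcstnΔKC 1 and 2 through its longest probe alone.

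Each member was read by overlapping probes of 1 mature sequence, which differ by a base in length and so are not independent of one another. The 19-base and 20-base probes of miR-362-3p gave log2 differences of 1.46 ± 0.24 and 1.38 ± 0.25 (SE, n = 4 each), both without overlap. The 19-base probe was not well above background on normal 3, where it read 38.5. On normal 1, 2 and 4, 53.8% to 66.7% of its spots were well above background. The 17-base probe of miR-532-5p gave 1.26 ± 0.25, also without overlap. Its 16-base probe was detected on 4 NcstnΔKC arrays, at intensities of 45.7, 83.4, 73.2 and 77.0 in NcstnΔKC 1 to 4, and was not well above background on any normal array, where it read 30.3, 32.5, 25.5 and 30.9 in normal 1 to 4. Against the lowest signal detected on each normal array it was at least 1.70-fold higher in NcstnΔKC skin. The probes of miR-500-3p gave 0.70 ± 0.24 at 15 bases, with overlap, and 0.72 ± 0.15 at 16 bases, without it. On the 15-base probe normal 3 read 135, above the 127 of NcstnΔKC 1.

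The 4 probes of miR-188-5p are shorter, 10 to 13 bases, and pair with stretches that end at base 21 and begin at base 9 or later, outside the seed. Their log2 differences were -0.81 ± 0.41, -0.83 ± 0.38, -0.70 ± 0.39 and -0.68 ± 0.32 (SE, n = 4 each) from the shortest to the longest probe, each with overlapping groups. The first 3 of these include NcstnΔKC 1 and 2 at signals not well above background, so that only the longest probe measured all 8 arrays. The longest was detected on all 8 arrays, and the other 3 on the 4 normal arrays and on NcstnΔKC 3 and 4 alone. On NcstnΔKC 1 and 2 the longest had 57.1% and 50% of its spots well above background, against the cut of 50%. Detection of miR-188-5p on these 2 arrays rests on that probe. On the longest, the intensity was 46.4, 51.7, 80.0 and 108 in NcstnΔKC 1 to 4, against 124, 102, 130 and 173 in normal 1 to 4. NcstnΔKC 3 and 4 were the 2 brighter NcstnΔKC arrays on every 1 of the 4 probes. No other miRNA on the array with a RefSeq sequence held the whole stretch read by any of these probes of miR-362-3p, miR-500-3p and miR-188-5p.

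**Figure D4:**
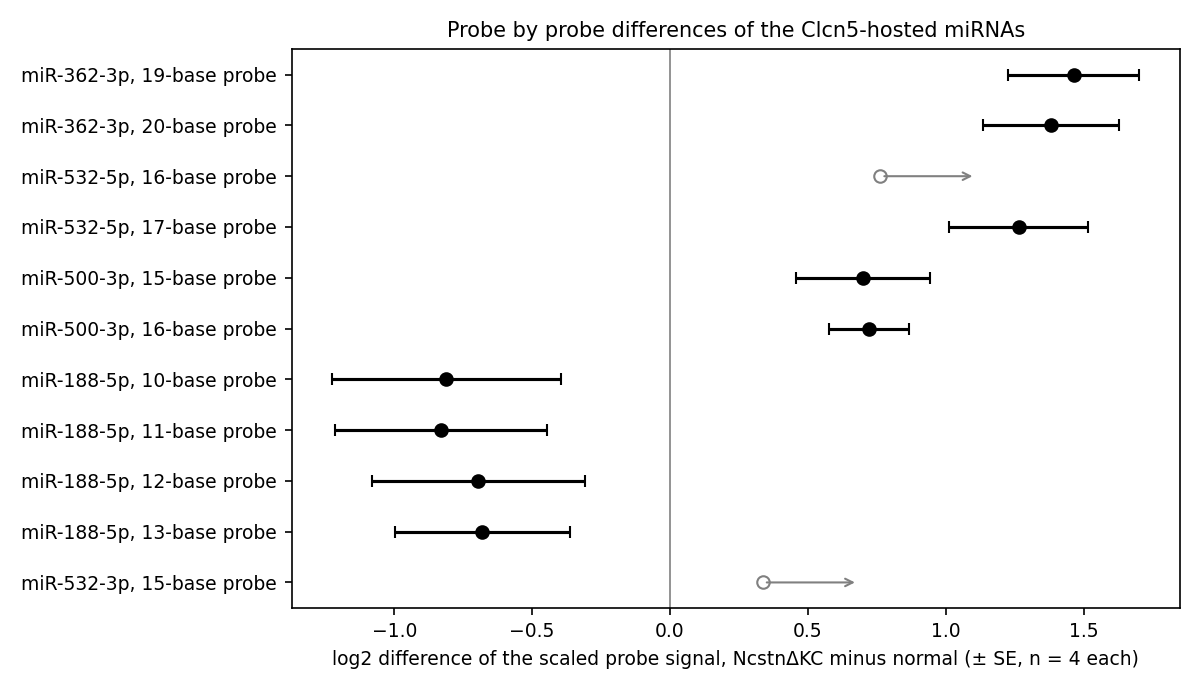
Log2 difference of scaled probe signal (horizontal axis, NcstnΔKC minus normal, ± SE, n = 4 each) for each probe of the 4 members and the 15-base probe of miR-532-3p. Open points with arrows are lower bounds, for probes not well above background on any normal array. That of miR-532-3p includes NcstnΔKC 1, where its probe was also not well above background, so it is not read as a bound. All probes of a member fall on the same side of 0, near 1.4 for miR-362-3p, near 0.7 for miR-500-3p and between -0.83 and -0.68 for miR-188-5p, whose 3 shorter probes were not well above background on NcstnΔKC 1 and 2.

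Mir501 is the hairpin drawn above that holds no member, and its 3′ arm is close in sequence to miR-500-3p, so that the probes for both are shown, with capitals where the targets differ. The mature form from RefSeq comes first, with its seed in capitals, and then the longest probe for each miRNA in the 5′ to 3′ direction.
miR-501-3p: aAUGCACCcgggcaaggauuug
miR-500-3p probe: TGaaCccttgcccAgg
miR-501-3p probe: CAaaTccttgcccGg
The mature forms share a seed and differ at 4 of 22 bases, U9C, G18A, C21U and A22G, with the base of miR-500-3p first and positions counted from the 5′ end. All 4 of these positions lie in the stretch that the probes read. miR-501-3p was detected on no array: its longest probe averaged -3.38 ± 2.10 in NcstnΔKC and -8.94 ± 2.90 in normal skin (background-subtracted intensity, SD, n = 4 each). The 16-base probe of miR-500-3p averaged 247 ± 27.7 in NcstnΔKC and 179 ± 18.8 in normal skin. The probes of miR-500-3p are placed at X, 6814875 to 6814888 and 6814874 to 6814888, in build mm9 by the array's design.

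The other mature arms of these 5 hairpins number 6. All 6 had probes on the array, and none was detected on all 4 arrays of a group, so that none was tested. Both arms of miR-660, which the list of this locus also holds, had no probes under that name on the array. miR-188-3p, miR-500-5p, miR-501-3p and miR-501-5p were detected on no array, and the probes of each averaged below 0 after background subtraction in both groups. miR-532-3p, from the other arm of the miR-532-5p hairpin, was detected on NcstnΔKC 2, 3 and 4 and on no normal array, through its longest probe alone. That probe read 34.6, 59.1, 54.6 and 59.1 in NcstnΔKC 1 to 4, against 19.8, 28.8, 22.6 and 30.8 in normal 1 to 4. The groups did not overlap. No fold is given, because the probe was not well above background on NcstnΔKC 1 or on any normal array. The longest probe of miR-362-5p averaged 31.9 ± 9.27 in NcstnΔKC and 11.3 ± 2.37 in normal skin (SD, n = 4 each), without overlap, but it was not well above background on any array, so that no fold is given. These 2 arms belong to the same hairpins as the 2 members with the largest differences.

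Elsewhere on the X chromosome the array's own positions place 82 further miRNAs, of which 10 could be tested. Of these 10, 1 was higher (against 14.9% of all tested miRNAs), 2 were lower (against 27.9%) and 7 did not pass, with a median log2 difference of 0.04 beside -0.23 over all 222. miR-20b-5p, of a cluster related to miR-17 to miR-92, was higher by 1.16 ± 0.17 (SE; limma, adjusted p = 0.00204). miR-3473a fell by 0.48 ± 0.16 (limma, adjusted p = 0.0419) and miR-652-3p by 0.78 ± 0.27 (limma, adjusted p = 0.0449). miR-223-3p, known from neutrophils, differed by 1.15 ± 0.44 and did not pass (limma, adjusted p = 0.0644). It passed without NcstnΔKC 1 (1.5; limma, adjusted p = 0.0196), without NcstnΔKC 2 (1.40; limma, adjusted p = 0.0490) and with cyclic loess (1.29; limma, adjusted p = 0.0489). The call of miR-20b-5p held with any 1 array left out (limma, adjusted p of 0.00127 to 0.0107). That of miR-3473a held without normal 1 alone, and that of miR-652-3p without normal 2 alone (limma, adjusted p up to 0.107 for miR-3473a and 0.110 for miR-652-3p with an array left out). With the percentile over all probes all 3 calls were lost, and miR-3473a and miR-652-3p turned to 0.39 and 0.09.

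By seed, the 3 members with a sequence had 1 mate each among the array's miRNAs with a RefSeq sequence, and none of these mates could be tested. miR-329-3p (chromosome 12) shares the seed of miR-362-3p and was detected on 0 NcstnΔKC arrays and 1 normal array. miR-7061-3p (chromosome 7) shares that of miR-188-5p, and miR-501-3p that of miR-500-3p, and both were detected on no array.

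The tested miRNAs outside the locus with profiles most like the members' mean were sought by the same root mean square difference, over 8 arrays and 218 candidates. They were miR-92a-3p (0.16), miR-93-5p (0.17), miR-106b-5p (0.18), miR-15b-5p (0.21) and miR-99b-5p (0.22), whose log2 differences between NcstnΔKC and normal skin were 0.78, 0.62, 0.71, 0.52 and 0.60. The neighbours differed by member. miR-17-3p came closest to both miR-362-3p (0.18) and miR-532-5p (0.17), and miR-92a-3p to miR-500-3p (0.15). For miR-188-5p the closest were miR-6769b-5p (0.26) and miR-6385 (0.32), so that its profile had no neighbour as near as those of the other 3 members. The likeness is a description over 8 arrays of 2 groups, in which any miRNA with a similar group difference comes close.

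In whole skin, fewer cells of a type and less miRNA per cell cannot be told apart. Summed scaled levels of marker miRNAs, fixed as lists, are therefore given beside the members. The calls in each list stand beside 14.9% higher and 27.9% lower among all 222 tested miRNAs. For 6 white blood cell miRNAs, of which 5 were tested (3 higher, 0 lower), the sum was 2.90, 3.56, 7.31 and 9.07 in NcstnΔKC 1 to 4, against 1.76 to 2.44 in normal skin. Most of that sum was miR-223-3p, with 1.62, 2.10, 5.19 and 6.72 in NcstnΔKC 1 to 4. Within NcstnΔKC skin miR-142a-3p, miR-142a-5p and miR-150-5p were lowest on NcstnΔKC 2, and miR-223-3p, miR-155-5p and miR-511-3p on NcstnΔKC 1. Of 5 fibroblast and smooth muscle miRNAs 3 were higher and 1 lower. Their sums were 9.01 to 14.0 in NcstnΔKC and 5.44 to 7.63 in normal skin. On NcstnΔKC 2 miR-199a-3p alone made 9.89 of the 14.0, while the log2 differences of miR-143-3p and miR-145a-5p were -0.52 and -1.14. Of 7 epidermal miRNAs 0 were higher and 4 lower, with sums of 22.7 to 30.3 in NcstnΔKC and 22.5 to 27.4 in normal skin, so the labelled tissue's own markers were abundant on all arrays. Both the fibroblast and smooth muscle sum and the epidermal sum were highest on NcstnΔKC 2. In scaled values miR-362-3p, miR-532-5p and miR-500-3p were also highest there. The scaling percentile was lowest on that array (922, against 1061 to 1160 on the other NcstnΔKC arrays), which raises every scaled value on it. Before scaling, miR-532-5p was still highest on NcstnΔKC 2, but miR-362-3p was highest on NcstnΔKC 3 (317) and miR-500-3p on NcstnΔKC 4 (419). The 4 striated muscle miRNAs (0 higher, 1 lower) summed to 38.3, 6.41, 12.9 and 13.1 in NcstnΔKC 1 to 4, against 17.5 to 84.1 in normal skin, with NcstnΔKC 1 the highest of its group. Red blood cell miRNAs (2 tested, 0 higher, 1 lower) summed to 1.05 to 2.83 in NcstnΔKC and 0.688 to 1.84 in normal skin. The endothelial list (1 tested, not passed) summed to 2.75 to 3.35 in NcstnΔKC and 2.38 to 3.08 in normal skin. No list summed to 0 on any array. With the percentile over all probes 0 lower calls were left in any list, and the 3 higher fibroblast and smooth muscle calls became 1. With no scaling or spike-in scaling those fibroblast and smooth muscle calls were 2, and with the software totals the 3 higher white blood cell calls became 2. Those white blood cell calls were 4 with quantile normalization, cyclic loess or normexp or without NcstnΔKC 1. With quantile normalization, cyclic loess, normexp or the series matrix values, the lower calls of muscle and red blood cells numbered 0 as well. The single lower call of muscle was lost without NcstnΔKC 2, 3 or 4 or normal 2, 3 or 4 and became 3 without NcstnΔKC 1 or normal 1. The 4 lower epidermal calls became 2 without NcstnΔKC 3. Higher epidermal calls, 0 as reported, became 1 with quantile normalization, cyclic loess or normexp or without NcstnΔKC 1, and 2 in the series matrix values. The lower call among fibroblast and smooth muscle miRNAs was lost without NcstnΔKC 2, 3 or 4 or normal 2, 3 or 4, and that of red blood cells without NcstnΔKC 2, 3 or 4 or normal 3 or 4. The 3 higher fibroblast and smooth muscle calls became 2 without normal 3 or normal 4, and the 3 higher white blood cell calls became 5 without NcstnΔKC 2. The part of these cell types in the members' differences was not tested.

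The authors' own processed log2 values, held in the series matrix, put the members in the same directions. There miR-362-3p was at 6.10, 7.25, 7.19 and 7.0 in NcstnΔKC 1 to 4, against 4.68, 4.83, 4.80 and 4.89 in normal 1 to 4, a difference of 2.09 ± 0.27 (SE). The differences were 1.81 ± 0.28 for miR-532-5p, 1.09 ± 0.29 for miR-500-3p and -0.78 ± 0.47 for miR-188-5p, again with overlap in miR-188-5p alone. NcstnΔKC 1 was the lowest NcstnΔKC array for all 4 members here too, while the order of the normal arrays differed for miR-362-3p and miR-532-5p. The normalization and centring of that table stay unknown, beyond its log2 scale. The scanner software's total per miRNA behaved otherwise for miR-532-5p: it was 34.9, 62.4, 55.0 and 58.0 in NcstnΔKC 1 to 4, against 25.1, 1389, 279 and 323 in normal 1 to 4. The probe intensities of that miRNA on normal 2 to 4, given above, were no higher than on normal 1 by a like factor.

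**Figure D5:**
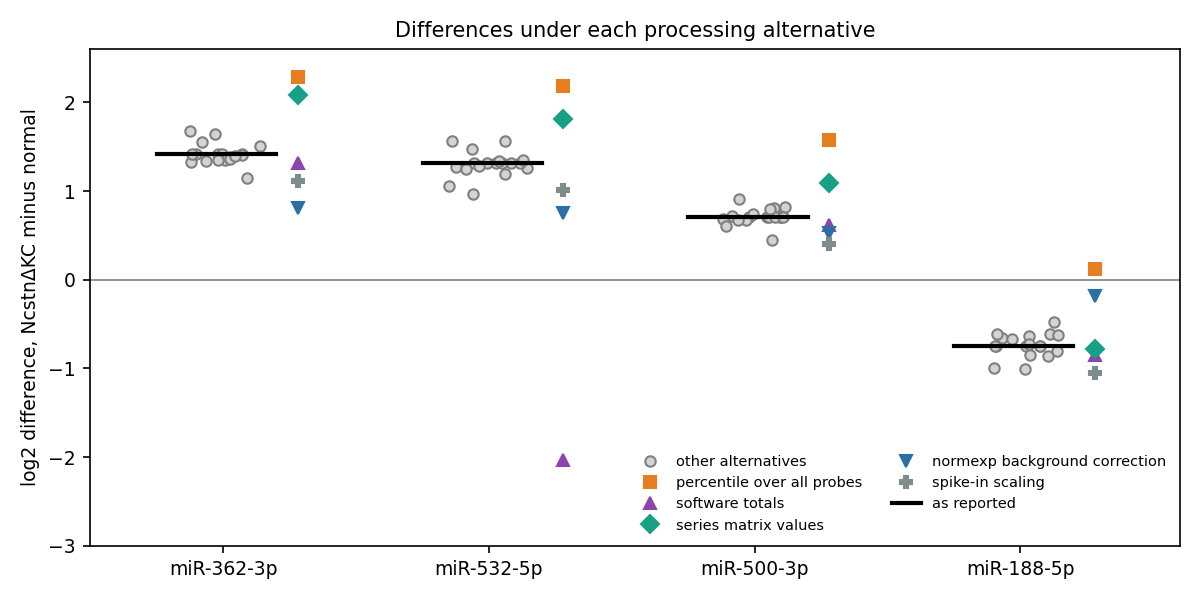
Log2 difference of each member (vertical axis, NcstnΔKC minus normal) as reported (black line), under 5 named alternatives (coloured marks) and under the others (grey points). miR-362-3p stayed between 0.81 and 2.28 and miR-500-3p between 0.41 and 1.58, miR-532-5p turned to -2.04 with the software totals, and miR-188-5p reached 0.12 when the percentile was taken over all probes.

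Because 3 members were higher together, the promoter at the distal start of Clcn5 is shown (RefSeq, GRCm38.p6, chrX:7319309-7319608, minus strand), with the 50 bases from the start onwards in capitals.
Clcn5 promoter: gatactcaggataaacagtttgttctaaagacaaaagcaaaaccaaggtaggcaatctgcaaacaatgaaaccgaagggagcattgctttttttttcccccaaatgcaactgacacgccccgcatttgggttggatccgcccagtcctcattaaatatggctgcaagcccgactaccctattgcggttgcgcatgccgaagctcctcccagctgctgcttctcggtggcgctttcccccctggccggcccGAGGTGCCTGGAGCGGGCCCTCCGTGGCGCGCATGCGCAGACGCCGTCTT
Its GC content was 56.0%. The letters TGGGAA, the core bound by RBPJ, the DNA-binding partner of cleaved Notch, were searched on both strands and were in neither of the 2 promoter windows given for Clcn5. They were in 25.6% of 32851 mouse promoter windows of the same length. Transcripts of Clcn5 were not measured by these arrays.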

How the data were processed

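Members and lists were chosen with earlier results of these data known. Per the file headers, Agilent Feature Extraction 10.7.1.1 gave each spot an intensity, deposited as raw mean, local background and background-subtracted processed signal, with no scaling between arrays, and 0 or 1 flags for detection, saturation and outliers. Positions refer to mm9 per the file headers. The authors also deposited log2 values per miRNA, whose medians were 3.24 to 3.25 on every array and whose normalization the sources used here do not give. Each array had 58594 spots, 56430 of them for 4415 miRNA probes; control spots and outlier spots (2223 to 2940) were dropped, and 0 were saturated. Processed intensities were averaged per probe, divided by the 75th percentile over the 301 probes detected on all 8 arrays, summed per miRNA (undetected probes included), floored at 0.0318 (log2 -4.97) and put on a log2 scale. The 222 miRNAs detected on every array of at least 1 group were fitted with limma 3.58.1 (R 4.3.3; lmFit on group, eBayes, Benjamini-Hochberg over 222). Standard errors of the members are from the 2 group SDs. The limma fit, and not the steps before it, was tested on simulated log2 values. Sequences are from RefSeq tables (1608 of 1881 miRNAs matched). Named miRNAs were the members, the other arms of their hairpins, up to 4 other X miRNAs with the smallest p, seed mates and the nearest profiles; the nearest profiles of single members were added to that rule. Alternatives covered scaling, background correction, probe summary, floor, filter, replicate block and single arrays left out.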

Additional observations from a re-analysis of the deposited data

Results flagged for a closer look

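On NcstnΔKC 1 the level of miR-362-3p lay apart from the other 3 NcstnΔKC arrays: the gap to the nearest of them was 0.845 of the group's whole range, past Dixon's critical value for 4 samples. The mean of the 4 members was flagged for the same array, with a gap of 0.835 of the range. These were 2 of 38 groups examined, and chance flags about 1 in 20. On that array the striated muscle, red blood cell and endothelial lists were the highest of their group. The white blood cell list, most of it miR-223-3p, and the epidermal list were the lowest. The part of these lists was not tested.

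The scanner software's totals, which the comparisons do not use, held signal for 2 arms that could not be tested. For miR-532-3p they were 121, 366, 349 and 517 in NcstnΔKC 1 to 4, against 1.96 to 2.26 in normal 1 to 4. For miR-362-5p they were 67.5, 70.3 and 70.9 in NcstnΔKC 2 to 4 and 1.91 in NcstnΔKC 1, against 1.96 to 2.25 in normal 1 to 4. Apart from miR-362-5p on NcstnΔKC 1, these lie above the level in normal skin, but the totals of miR-532-3p do not follow its probes: its single detected probe read 34.6 to 59.1 in NcstnΔKC skin, and its total of 517 on NcstnΔKC 4 stands beside 88.9 for miR-500-3p there, whose summed intensity was 419. No probe of miR-362-5p was well above background on any array. The same totals of miR-532-5p were raised in normal 2 to 4 instead, also against its probe intensities. They are given as deposited, and no fold is taken from them.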

How the results depend on the processing

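Over the 23 alternatives, with each of the 8 arrays left out among them, miR-362-3p and miR-500-3p stayed higher in NcstnΔKC skin in all, with log2 differences of 0.81 to 2.28 and 0.41 to 1.58. miR-532-5p turned to -2.04 with the software totals, and miR-188-5p to 0.12 with the percentile over all probes, under which the median of all tested miRNAs was 0.64. Relative to each setting's own median (22 settings), miR-188-5p stayed at -0.73 to -0.12. The mean of the 4, 0.67 as reported, was 1.54 with the percentile over all probes, 0.37 with spike-in scaling, 1.05 in the series matrix values and -0.24 with the software totals, and 0.57 to 0.89 with an array left out. The 95 miRNAs called became 12 with the percentile over all probes (12 higher, 0 lower), 52 with the software totals, 19 with no filter on dim miRNAs, 61 with detection required on all 8 arrays, and 58 to 97 with an array left out, the lowest without NcstnΔKC 3. The split of 33 higher and 62 lower became 37 and 35 with quantile normalization, 39 and 38 with cyclic loess, 24 and 101 with no scaling and 18 and 91 with spike-in scaling, where the medians of all tested miRNAs were -0.07, -0.10, -0.49 and -0.54. With normexp background correction it was 36 and 28, and in the series matrix values 36 and 36. Same-numbered arrays correlated at -0.44, 0.20, -0.26 and -0.23 after removal of group means. These values cannot decide whether the numbers pair the arrays. The replicate block gave 71 calls (28 higher, 43 lower). Of the 10 other X miRNAs between 0 and 5 passed over the alternatives, against 3 as reported. The cause of these shifts was not tested. Signal over background limits miR-362-3p, miR-532-5p and miR-188-5p, each with a shorter probe that was not well above background on at least 1 array.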
